A study of Rattus norvegicus with 6 samples.

Results

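Genes that mark endothelial cells were followed in cultured neonatal rat ventricular cardiomyocytes (NRVCs). The 10 genes, Kdr, Flt1, Tek, Tie1, Eng, Cdh5, Pecam1, Emcn, Vwf and Nos3, were chosen by name, by a rule that uses no measured value, though with earlier results of these data known, from 16575 genes with a named probe. The array carried 12 probes for them, 2 each for Vwf and Flt1 and 1 for each other gene. All 10 genes had signal well above background on at least 1 array. Of the 10, 7 were kept for the test, and these 7 were well above background on all 6 arrays. Vwf and Kdr were the brightest, and Tie1, Emcn and Flt1 lay at the edge of detection. None of the 7 passed the adjusted threshold for a difference between C3a and control. The largest difference was a lower mean of Nos3 with C3a, by a log2 difference of -0.39.

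NRVCs are primary heart muscle cells isolated from ventricles after birth, here from Sprague-Dawley neonates 1 to 2 days old, with the hearts of 8 to 10 rats pooled for a preparation. The question of the comparison was which transcripts differ after exposure of these cells to C3a, the peptide cleaved from complement component C3. The control group comprised 3 samples kept in control medium, and the C3a group comprised 3 samples given recombinant C3a at 0.5 µg/ml for 12 h. The labels name a serum-free medium for all samples, whereas the methods mention a brief starvation in low serum before stimulation, and both groups were preplated, a step that removes cells which adhere fast. Nothing in the labels says whether the 3 samples of a group came from separate preparations, so the p-values measure the spread between these samples, which may be technical.

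Endothelial cells line blood vessels and the inner surface of the heart. They carry receptor tyrosine kinases for vascular endothelial growth factors and angiopoietins, hold to each other through VE-cadherin and PECAM-1, and release von Willebrand factor and nitric oxide. In the myocardium, capillary endothelial cells lie beside the cardiomyocytes, and both are freed when ventricles are digested. In RNA from a whole culture, fewer endothelial cells and less endothelial RNA per cell cannot be told apart.

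Each sample was labelled with Cy3 and hybridised to its own 1-colour Agilent array with 45598 different probes. Signals are given on the log2 scale with the 75th percentile of each array subtracted, so that 0 is the level at that percentile. Probes differ in how brightly they report a transcript, and the order of genes below is an order of signal and not of transcript amount. On control replicate 1, 38.6% of the probes had signal well above background, and on the other arrays 53.7% to 57.3%, and the median background of control replicate 1 was 47 intensity units against 23 or 24 on the others. All 6 arrays were on 1 slide and scanned in 1 session, with the controls along one side and the C3a arrays along the other, and an effect of the slide side cannot be told apart from that of C3a. The replicate number was also the position along the slide.

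Regulatory sequence at the start of the genes is shown because endothelial promoters are known for binding sites of ETS factors, whose core is GGAA. RefSeq promoters, 250 bases before and 50 after the transcription start on the GRCr8 assembly, matched 6 of the 10 genes (Kdr, Tie1, Flt1, Eng, Nos3 and Emcn). They were searched on both strands for AGGAAG, an ETS-type core, for GGGCGG, the GC box, and for TATAAA. 4 are printed 5′ to 3′ on the strand of the gene, those of both growth factor receptors, of the TGF-β coreceptor and of the enzyme with the largest difference, with AGGAAG or its reverse complement CTTCCT in capitals. Kdr is at chr14:32571813-32572112 on the plus strand, Flt1 at chr12:12333180-12333479 on the plus strand, Eng at chr3:36332029-36332328 on the plus strand and Nos3 at chr4:11706532-11706831 on the minus strand.
Kdr: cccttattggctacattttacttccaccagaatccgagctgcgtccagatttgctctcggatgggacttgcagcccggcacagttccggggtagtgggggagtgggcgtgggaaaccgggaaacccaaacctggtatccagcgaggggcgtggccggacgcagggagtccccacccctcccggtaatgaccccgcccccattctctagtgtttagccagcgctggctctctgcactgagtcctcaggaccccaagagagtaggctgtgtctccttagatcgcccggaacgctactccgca
Flt1: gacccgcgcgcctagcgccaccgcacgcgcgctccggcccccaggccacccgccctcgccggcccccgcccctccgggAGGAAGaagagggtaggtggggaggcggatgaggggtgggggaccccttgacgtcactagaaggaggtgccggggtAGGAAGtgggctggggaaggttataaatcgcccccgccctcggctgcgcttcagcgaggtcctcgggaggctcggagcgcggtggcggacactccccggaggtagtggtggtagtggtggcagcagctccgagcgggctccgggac
Eng: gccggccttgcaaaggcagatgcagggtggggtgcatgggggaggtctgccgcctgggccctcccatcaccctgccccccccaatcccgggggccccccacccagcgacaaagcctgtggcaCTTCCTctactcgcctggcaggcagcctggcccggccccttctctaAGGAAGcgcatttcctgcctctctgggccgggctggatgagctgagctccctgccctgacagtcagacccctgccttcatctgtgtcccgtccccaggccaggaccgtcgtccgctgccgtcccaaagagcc
Nos3: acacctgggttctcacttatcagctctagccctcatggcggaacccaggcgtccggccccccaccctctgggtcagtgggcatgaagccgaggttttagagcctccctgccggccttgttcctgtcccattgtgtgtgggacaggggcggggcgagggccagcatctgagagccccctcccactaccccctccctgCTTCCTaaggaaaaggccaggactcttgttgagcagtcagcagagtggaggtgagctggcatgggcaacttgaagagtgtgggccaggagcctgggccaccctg
The letters AGGAAG occurred 0 times in the window of Kdr, 2 times in those of Flt1, Eng and Emcn, and 1 time in those of Tie1 and Nos3. They occurred at least once in 34.5% of the 33469 RefSeq promoters of the same length. The GC box occurred 1 time in Kdr, Tie1 and Nos3, 3 times in Flt1 and 0 times in Eng and Emcn, and in 33.1% of all promoters. TATAAA occurred in Flt1 alone among the 6, and in 14.2% of all promoters. None of the AGGAAG matches overlapped a match of another motif. These matches describe letters in a window and do not show that a factor binds there. The brightest of the 6 genes, Kdr, was the one without AGGAAG in its window, and the dimmest, Flt1, held 2. The shorter core GGAA was not counted, and it does occur in the printed window of Kdr. The counts of AGGAAG therefore do not say which windows lack an ETS core.

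The signals spanned a wide range. In the controls, the mean log2 signal was 4.63 ± 0.36 (SD, n = 3) for Vwf and 3.70 ± 0.15 for Kdr, at the 95.6 and 93.2 percentile of all probes. Pecam1 followed at 0.73 ± 0.16. Tek at -0.10 ± 0.10, Cdh5 at -0.62 ± 0.23, Eng at -0.66 ± 0.05 and Nos3 at -1.41 ± 0.20 were near or below the 75th percentile of the array. Emcn at -3.37 ± 0.51, Tie1 at -3.38 ± 0.32 and Flt1 at -4.08 ± 0.68 closed the order. The ranges over the 3 control arrays overlapped for the neighbours Cdh5 and Eng, Emcn and Tie1, and Tie1 and Flt1, and for no other neighbours. With C3a the neighbours that overlapped were Cdh5 and Tek, Emcn and Tie1, and Tie1 and Flt1.

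**Figure D1:**
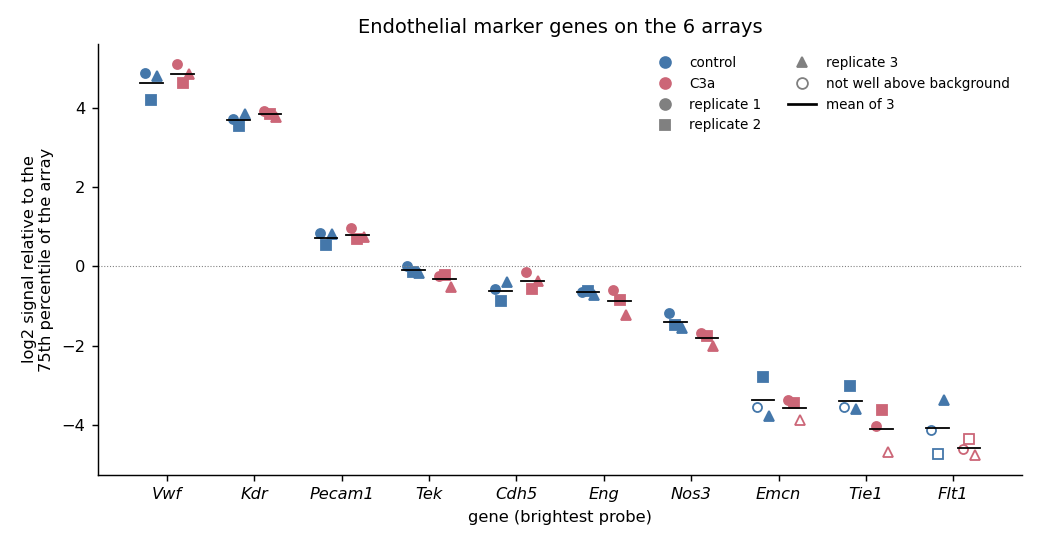
Log2 signal relative to the 75th percentile of each array (vertical axis) for the brightest probe of each of the 10 genes (horizontal axis, ordered by control mean). Symbols are single arrays by replicate number, blue for control and red for C3a, open where the probe was not well above background, and bars are means of 3. Vwf and Kdr lie above 3.55 on every array, while Emcn, Tie1 and Flt1 lie below -2.80 or at it and have open symbols.

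As a check of the label, genes of the cardiomyocyte itself were far brighter. The median control signal of 24 cardiomyocyte genes with a probe was 7.85, led by Myh6 (α-myosin heavy chain) at 10.06 and Actc1 (cardiac α-actin) at 9.97, against -0.64 for the 10 endothelial genes. The difference of these medians was 8.48 on the log2 scale. Vwf was dimmer than 20 of the 24 cardiomyocyte genes and brighter than 4. With C3a the medians were 7.97 and -0.62.

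The other endothelial genes gave a similar picture of partial detection. Of 36 other genes that mark endothelium, 32 had a named probe and 18 were well above background on all 6 arrays. The ETS factors Erg and Fli1 were among these 18, at control means of -0.15 and -0.16. The brightest were the water channel Aqp1 at 5.38 and T-cadherin Cdh13 at 3.42, both of which are also expressed in other cells of the heart. Of the 32, 9 were not well above background on any array, among them the tight junction protein Cldn5, the transcription factors Sox7 and Sox17, the Notch ligand Dll4 and the selectins Selp and Sele. For lymphatic endothelium, Lyve1 was well above background on 0 arrays, while Prox1, which cardiomyocytes also express, was at 6.50 and Pdpn at 2.46. Flt4 (VEGF receptor 3) cleared background on each of the 6 arrays, with a control mean of -1.10. Of 6 endocardial genes, 4 were kept, led by Cgnl1 at 2.04 and Nfatc1 at 0.82, and Cytl1 and Hapln1 were not well above background on any array.

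Genes of other non-myocytes were detected beside them. The brightest fibroblast genes were Sparc at 7.78 and Col1a2 at 5.72, and the brightest mural genes Tagln at 4.71 and Cspg4 at 3.50. Median control signals were far lower, at -0.07 for the 12 kept fibroblast genes and 0.27 for the 10 kept mural genes. Of 13 fibroblast genes 9, and of 10 mural genes 7, cleared background on all 6 arrays. Pdgfra at -1.78, Tcf21 at -2.80 and Thy1 at -3.21 were dim fibroblast genes, and Fap cleared background on 0 arrays. The dimmest mural gene was Rgs5, at -4.08. The macrophage genes Lyz2 and Cx3cr1 were at 2.41 and 2.00, while Mrc1 and C1qa cleared background on 0 arrays and Ptprc on 1. Of 12 macrophage genes with a probe, 6 were kept, with a median control signal of -1.57 and Csf1r the lowest at -3.79. On all 6 arrays, 3 of the 12 cleared background. Platelets also contain Vwf and Pecam1 products, and of 6 platelet genes with a probe 3 were kept, with Gp1bb at 1.09, Pf4 at 0.74 and Gp1ba not well above background on any array.

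**Figure D2:**
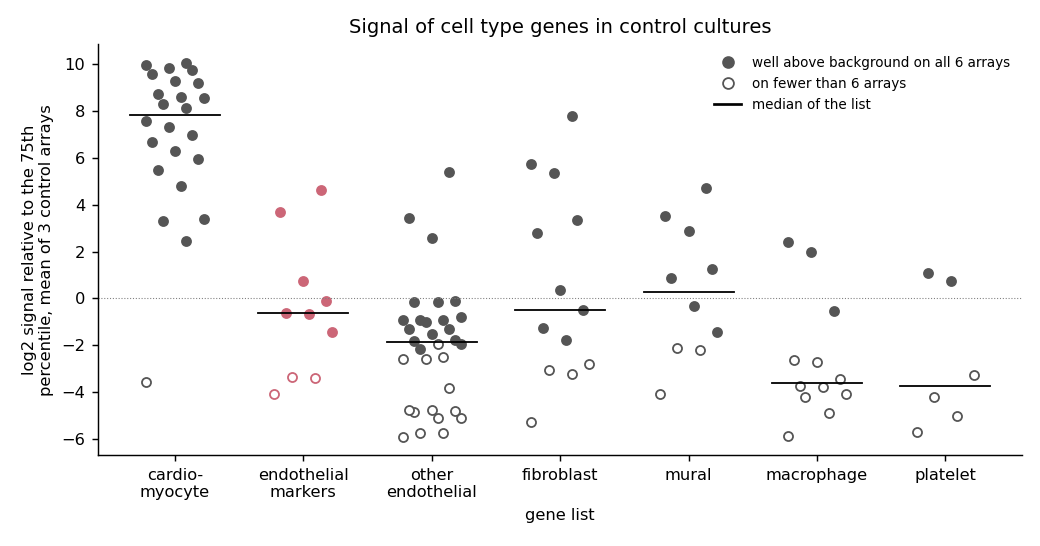
Mean log2 signal over the 3 control arrays, relative to the 75th percentile of each array (vertical axis), for genes of 7 cell type lists (horizontal axis). Each point is 1 gene by its brightest probe, filled where it was well above background on all 6 arrays, and bars are list medians. The cardiomyocyte median of 7.85 lies above all 10 endothelial marker genes, shown in red.

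Differences between C3a and control were tested with limma over all 23438 kept probes. No probe passed an adjusted p of 0.05 in either direction (0%), and none of the 7 endothelial genes did, with adjusted p from 0.746 to 0.887. At an unadjusted p under 0.05, 780 probes (3.33%) were higher with C3a and 587 (2.5%) lower. Of the 7 endothelial genes, 0 were higher and 1, Nos3, was lower, and 1 call among 7 genes is too few to set against these shares. The median log2 difference of the 7 was 0.064, with 4 above 0 and 3 below, beside a median of 0.048 over all kept probes, of which 62.2% were above 0. With no scaling between arrays the median of the 7 was -0.26 and that of all kept probes -0.28, and with scaling to spike-in probes these were -0.39 and -0.40, so the higher C3a means of Vwf, Kdr, Pecam1 and Cdh5 turned to lower ones under these 2 settings, and the lower means of Tek, Eng and Nos3 stayed lower.

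The receptors for vascular endothelial growth factors gave 1 measurable gene. Kdr (VEGF receptor 2) had log2 signals of 3.71, 3.55 and 3.84 on control replicates 1, 2 and 3 and 3.91, 3.84 and 3.77 with C3a. The groups overlapped, since control replicate 3 was as high as C3a replicate 2. The C3a mean was higher by 0.14 (SE 0.11, 95% interval -0.12 to 0.40, adjusted p = 0.753 by limma). Flt1 (VEGF receptor 1) was well above background on control replicate 3 only, at -3.37, and on no C3a array, and no fold change is given. The other probe of Flt1 was well above background on no array.

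The receptors of the angiopoietin system, in which Tek binds angiopoietins and Tie1 is its partner, both had lower C3a means. Tek was at 0.02, -0.14 and -0.16 on the controls and -0.25, -0.23 and -0.51 with C3a. All C3a arrays lay below all controls. The difference was -0.23 (SE 0.12, 95% interval -0.51 to 0.04, adjusted p = 0.746 by limma), and the exact permutation p was 0.1, the smallest that 3 against 3 arrays allow. Tie1 was at -3.54, -3.02 and -3.60 on the controls and -4.01, -3.63 and -4.69 with C3a. These did not overlap either, but the probe was well above background only on control replicates 2 and 3 and C3a replicates 1 and 2, and it was not tested.

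Eng (endoglin, a coreceptor for TGF-β family ligands) was at -0.64, -0.63 and -0.71 on the controls and -0.59, -0.84 and -1.22 with C3a. The controls lay close together and the C3a arrays spread on both sides of them, with C3a replicate 3 the lowest. The difference was -0.22 (SE 0.16, 95% interval -0.61 to 0.16, adjusted p = 0.746 by limma).

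The genes of cell contacts and the cell surface had intervals that span 0. Cdh5 (VE-cadherin, the adhesion molecule of endothelial adherens junctions) was at -0.58, -0.87 and -0.40 on the controls and -0.14, -0.58 and -0.36 with C3a. The groups overlapped, with control replicate 2 the lowest and C3a replicate 1 the highest, and the C3a mean was higher by 0.26 (SE 0.16, 95% interval -0.13 to 0.64, adjusted p = 0.746 by limma). Pecam1 (CD31, an adhesion molecule of endothelium, platelets and leukocytes) was at 0.84, 0.54 and 0.81 on the controls and 0.96, 0.69 and 0.73 with C3a. Again control replicate 2 was lowest and C3a replicate 1 highest. The difference of 0.064 (SE 0.13, 95% interval -0.24 to 0.36, adjusted p = 0.887 by limma) was smaller than its error and turned to -0.030 without control replicate 2 and to -0.019 without C3a replicate 1. Emcn (endomucin, a sialomucin of capillary and venous endothelium) was at -3.54, -2.80 and -3.78 on the controls and -3.38, -3.45 and -3.88 with C3a, well above background on control replicates 2 and 3 and C3a replicates 1 and 2, and was not tested.

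The secreted product and the enzyme lay on opposite sides. Vwf (von Willebrand factor, the platelet-binding protein of Weibel-Palade bodies) was at 4.87, 4.21 and 4.80 on the controls and 5.12, 4.63 and 4.85 with C3a. Replicate 2 was the lowest in both groups. The C3a mean was higher by 0.24, a 1.18-fold ratio (SE 0.21, 95% interval -0.25 to 0.73, adjusted p = 0.761 by limma). The other probe of Vwf was dimmer by a log2 difference of 9.12 in the controls and was well above background on C3a replicate 3 alone, so the level of Vwf rests on 1 probe.

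Nos3 (endothelial nitric oxide synthase) was at -1.18, -1.49 and -1.57 on the controls and -1.67, -1.74 and -1.998 with C3a. All C3a arrays lay below all controls. The difference was -0.39, a control level 1.31 times that with C3a (SE 0.14, 95% interval -0.73 to -0.06, unadjusted p = 0.0277 and adjusted p = 0.746 by limma), and the exact permutation p was 0.1. Nos3 ranked 738 of 23438 probes by p. Without control replicate 1, the array with the higher background, the difference was -0.28 (unadjusted p = 0.0888 by limma), and without C3a replicate 3 it was -0.30 (unadjusted p = 0.0904). With the replicate number as a block, the unadjusted p was 0.00777 and the adjusted p 0.233 by limma. Under that block Nos3 was again the 1 gene of the 7 that was lower at an unadjusted p under 0.05 and 0 were higher, beside 5.85% lower and 7.74% higher over all kept probes. Tek and Nos3 were the 2 of 7 genes with all C3a arrays below all controls, and 0 had all C3a arrays above, beside 4.49% and 7.96% of all kept probes.

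The differences were also taken relative to the median difference of all kept probes, which moved from 0.048 to -0.40 with the scaling. Scalings that shift a whole array (none, either percentile or spike-in) give the same value on this relative scale by construction, so that the range below comes from percentile scaling, quantile normalisation and another background correction. On this scale Cdh5 was higher by 0.16 to 0.24, Vwf by 0.13 to 0.19, Kdr by 0.053 to 0.097 and Pecam1 by 0.017 to 0.035. Tek was between -0.28 and -0.22, Eng between -0.27 and -0.16 and Nos3 between -0.44 and -0.26.

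**Figure D3:**
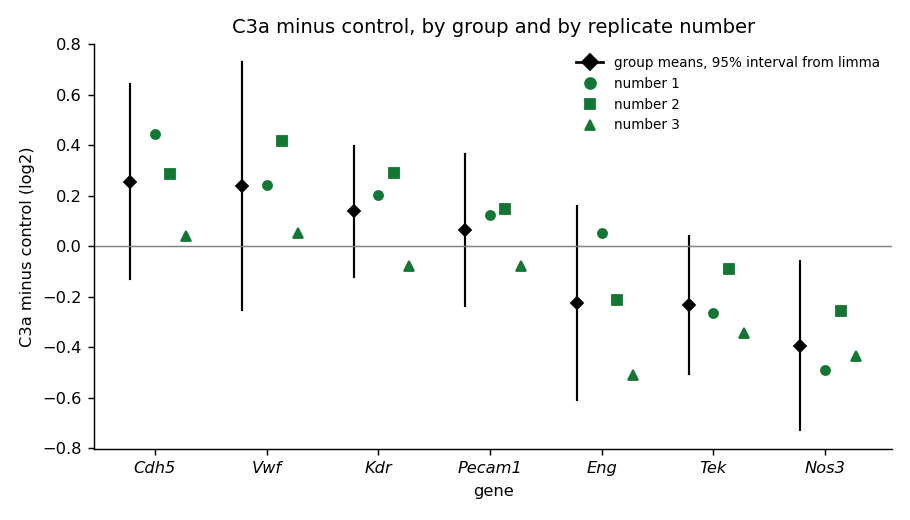
Difference of C3a minus control in log2 signal (vertical axis) for the 7 tested genes (horizontal axis). Black diamonds are differences of group means with 95% intervals from limma, and green symbols are differences between arrays with the same replicate number. The interval of Nos3 (-0.73 to -0.06) is the only one that lies wholly below 0, and the 6 others include 0.

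Compared within replicate numbers, the direction varied with the number. In number 1, 5 of 7 genes were higher with C3a (59.5% of all kept probes), in number 2, 4 of 7 (63.6%), and in number 3, 2 of 7 (49.7%). The median differences of the 7 were 0.12, 0.15 and -0.078, beside 0.046, 0.095 and -0.0014 over all kept probes. Vwf (0.24, 0.42 and 0.052) and Cdh5 (0.44, 0.29 and 0.040) were higher with C3a in all 3 numbers, which held for 25.1% of kept probes. Tek (-0.26, -0.088 and -0.35) and Nos3 (-0.49, -0.26 and -0.43) were lower in all 3, which held for 13.7%. Kdr, Pecam1 and Eng lay on different sides in different numbers.

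Some arrays were high or low for most of the genes. Relative to its own group mean, each of the 7 genes was above on control replicate 1 and on C3a replicate 1, and each was below on C3a replicate 3. On control replicate 2, 6 of 7 were below. Over all kept probes the shares above the group mean were 57.7%, 60.4%, 44.1% and 39.4% on these 4 arrays. The summed linear signal of the endothelial genes ranged from 34.1 to 46.9 on the controls and 43.0 to 54.4 with C3a, where 1 is the 75th percentile of the array. Vwf and Kdr made up 87.7% to 91.5% of this sum, which is therefore mostly a value of these genes. That of the cardiomyocyte genes ranged from 7298 to 9320 and from 8990 to 10104, and was also lowest on control replicate 2 and highest on C3a replicate 1. The part of these array differences in the results for single genes was not tested.

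Pairs of the 7 genes were also compared across the 6 arrays by Pearson's r, as a description over arrays that share the treatment groups and the scaling. Of 21 pairs, 12 were above 0 and the median r was 0.083, the same as the 0.083 over all pairs of kept genes. The range was from -0.43 to 0.97. After removal of group means, 20 of 21 pairs were above 0 and the median was 0.40, beside 0.093 over all pairs. The genes were then split, with the values in view, into those with the higher and those with the lower C3a mean, a split that by itself lowers r between the sets. The 6 pairs among Vwf, Kdr, Pecam1 and Cdh5 had r from 0.76 to 0.96, and the 3 pairs among Tek, Eng and Nos3 from 0.77 to 0.97, and the 12 pairs between the sets had r from -0.43 to 0.21. With group means removed, 11 of the 12 pairs between the sets were above 0, with r from -0.030 to 0.46 and a median of 0.25, and the pairs within the sets had r from 0.75 to 0.97 and from 0.69 to 0.93. Spike-in scaling moved the 12 pairs between the sets to 0.82 to 0.99 and no scaling to 0.41 to 0.99. Without control replicate 2 they ranged from -0.43 to 0.69 and the lowest pair within the first set was 0.29, and without C3a replicate 3 the lowest pair within the second set was 0.28.

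**Figure D4:**
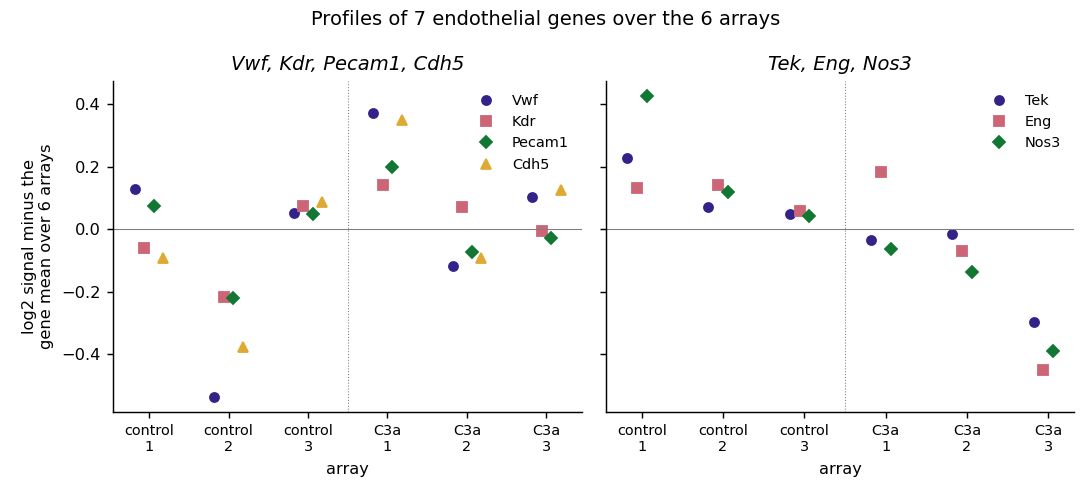
Log2 signal of each gene minus its mean over the 6 arrays (vertical axis) on each array (horizontal axis), for Vwf, Kdr, Pecam1 and Cdh5 (left) and Tek, Eng and Nos3 (right). The left genes are lowest on control replicate 2, and the right genes are lowest on C3a replicate 3.

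**Figure D5:**
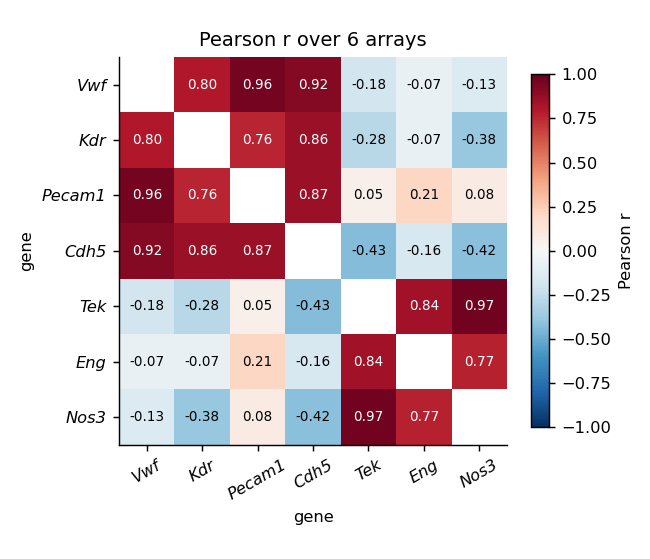
Pearson's r over the 6 arrays for each pair of the 7 tested genes, with genes on both axes and colour from -1 (blue) to 1 (red). The blocks of 4 and 3 genes hold the high values, 0.76 to 0.97, and the 12 pairs between them lie from -0.43 to 0.21, or from -0.030 to 0.46 with group means removed (not drawn).

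The genes whose profile over the 6 arrays was most like the mean of the 7 endothelial genes were Rnf4 (r = 0.998), Chmp5 (r = 0.994), Mrps17 (r = 0.994), Itpa (r = 0.993) and Mki67 (r = 0.990), among 10385 genes compared. In all, 77 genes had r above 0.95. The 5 named are in none of the endothelial lists, and Mki67 marks proliferating cells. The differences of C3a minus control of these 5 genes lay between -0.030 and 0.00062 on the log2 scale. The mean profile itself differed little between the groups, as it joins 4 genes with a higher and 3 with a lower C3a mean. Small differences of the 5 genes thus follow from how they were picked and are not a separate result.

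Genes that act with the endothelial markers were read from lists, whose calls stand beside 3.33% higher and 2.5% lower over all kept probes, or 7.74% and 5.85% with the replicate block. Of 13 ligands of these receptors, 9 were kept and 0 passed an unadjusted p of 0.05 in either direction, with a median log2 difference of 0.031. Vegfa, the ligand of Kdr and Flt1, was at 4.83 ± 0.25 (SD, n = 3) in the controls and 4.98 ± 0.10 with C3a, and Vegfb, a ligand of Flt1, was at 4.17 and 4.17. Angpt2, a context-dependent ligand of Tek, was at -1.24 ± 0.39 and -1.61 ± 0.25 (unadjusted p = 0.125 by limma, and 0.0122 with the replicate block), the 1 ligand called under the block. Vegfd, Angpt4, Gdf2 and Bmp10 were not well above background on any array. Of 22 partners of the receptors and of Nos3, 18 were kept and 0 passed, with a median of 0.027. Under the block the junction protein Ocln (0.26, unadjusted p = 0.0358 by limma) was higher and the junction protein F11r (-0.50, unadjusted p = 0.00327 by limma) lower. The brightest partners were Ddah1 at 5.05 and Ddah2 at 4.97, which degrade endogenous inhibitors of nitric oxide synthases.

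Among 12 genes of endothelial activation and vasoregulation, 9 were kept. At an unadjusted p of 0.05, C3a gave 0 higher means and 1 lower mean, with a median of -0.10 over the list. Over all kept probes the shares were 3.33% higher and 2.5% lower, or 7.74% and 5.85% with the replicate block. Edn1 (endothelin-1, a vasoconstrictor peptide) was at -3.35, -2.79 and -3.13 on the controls and -3.66, -3.60 and -3.66 with C3a, a difference of -0.55 (SE 0.15, unadjusted p = 0.0078 and adjusted p = 0.746 by limma). Its groups did not overlap, and it was well above background on all arrays but control replicate 1. Under the block Procr (the endothelial protein C receptor, -0.61, unadjusted p = 0.0566 without the block and 0.0087 with it by limma) was lower as well, and it too was not well above background on control replicate 1. Cardiomyocytes and fibroblasts express Edn1 too. The inflammatory adhesion molecules Icam1 and Vcam1 differed by 0.025 and -0.13, and Sele, Selp and Il6 were not well above background on any array.

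The remaining endothelial and non-myocyte lists had few calls. These stand beside 3.33% higher and 2.5% lower over all kept probes, or 7.74% and 5.85% with the replicate block. Of the 22 kept other endothelial genes, 0 passed an unadjusted p of 0.05 (Procr under the block), with 9 above 0, 13 below and a median of -0.055. The 4 kept lymphatic and 4 kept endocardial genes had 0 calls and medians of 0.15 and -0.031. Under the block 2 of the 4 lymphatic genes were higher, Flt4 (0.29, unadjusted p = 0.0341 by limma) and Reln (0.32, unadjusted p = 0.0294 by limma), and 0 endocardial genes were called. Among 12 kept fibroblast genes 1 was lower, Lum (lumican, -0.54, unadjusted p = 0.0367 by limma), with a median of -0.044. Among 6 kept macrophage genes 1 was higher, Itgam (CD11b, 0.63, unadjusted p = 0.00705 by limma), with a median of 0.26. Reln, Lum, Itgam, Csf1r and C1qb were not well above background on control replicate 1. Reln, Itgam, Csf1r (0.41) and C1qb (0.21) entered the test through the C3a arrays, where they were higher. The macrophage median of 0.26 rests in part on such genes and is not a separate result. The kept macrophage genes well above background on all 6 arrays were Cx3cr1 (0.30), Cd68 (-0.16) and Lyz2 (-0.089). The 10 mural, 3 platelet and 24 cardiomyocyte genes had 0 calls and medians of 0.046, -0.013 and 0.12. Under the block 2 mural genes were higher (Acta2 and Notch3), 1 cardiomyocyte gene was higher (Tnnc1) and 1 lower (Actn2), and 0 platelet genes were called. Notch3 was well above background on 5 arrays, so it entered the test through only 1 of the groups. Summed linear signal ranged from 309 to 359 on the controls and 328 to 372 with C3a for fibroblast genes, from 8.67 to 11.9 and 11.03 to 11.06 for macrophage genes, and from 3.12 to 4.64 and 3.90 to 4.59 for platelet genes, and their part in the endothelial values was not tested.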

How the data were processed

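Gene expression was measured on 6 arrays, 3 control and 3 C3a, grouped by condition and replicate number in the labels. For every spot the authors deposited an intensity from Agilent Feature Extraction 11.5.1.1, as named in the submitters' processing notes, which had been corrected for background and was not normalised between arrays. The authors also deposited a log2 table of 36638 probes, which matched, with no centring, the scanner intensities on the log2 scale after subtraction of the array's 75th percentile, to a median absolute difference of 0.0021 to 0.0059. The methods name a variance test per gene, which for 2 groups is the plain equal-variance test.

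Of 62976 spots per array, 4259 control spots and spots with an outlier flag were left out, and spots of one probe were averaged. No spot was saturated (0 on each array). The array's 75th percentile was subtracted from each log2 intensity. Kept were 23438 probes well above background (on at least 50% of their spots) on all 3 arrays of at least one group. Accessions named 21109 of 45598 probes (46.3%) through the RefSeq gene table of GRCr8. For each gene the probe with the highest mean over 6 arrays was used. Groups were compared in limma 3.58.1 with R 4.3.3 (two-sided, Benjamini-Hochberg over kept probes), after a test on simulated data. Single genes were also compared by an exact two-sided permutation test with scipy 1.17.1. The number of arrays limits the precision.

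Deviations from the group mean correlated at 0.28, 0.32 and 0.31 between arrays with the same replicate number and at -0.26 to -0.093 between others. Arrays with the same number thus deviated together. The pairs were taken from the numbers in the sample titles, which may be names only. These correlations were the check of that pairing. Deviations from a group mean cancel within the group, so the negative correlations are not separate from the positive ones. The number was also the position along the slide, so position and a shared preparation cannot be told apart. The genes and lists were chosen with earlier results of these data known. The result of 1 list gene is not reported here, and its list was counted without it. Named were every endothelial marker gene, list genes with an unadjusted p under 0.05, the 2 brightest kept genes of a cell type list and the 5 genes most like the mean profile. Other list genes were named for their role, low signal or absence after their values were seen. Alternatives were quantile, no, another percentile and spike-in scaling (7 E1A probes), normexp (offset 50, on the median spot signal, the planned fallback, since the scanner columns used here give no mean), no filter, a filter on all 6 arrays, the deposited log2 table, a replicate block, a variance trend, the methods' test, the mean over probes of a gene, and leaving out each array. Leaving out arrays from the correlations between genes was added after seeing the data.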

Additional observations from a re-analysis of the deposited data

How the results depend on the processing

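Of 18 alternatives, Tek, Eng and Nos3 kept a lower C3a mean in 18, Vwf, Kdr and Cdh5 a higher one in 16 and Pecam1 in 14. No endothelial gene passed an adjusted p of 0.05 in any, and the smallest was 0.233, for Nos3 with the replicate block. The reversals came without normalisation, with Vwf at -0.087, Kdr at -0.19, Pecam1 at -0.26 and Cdh5 at -0.068, with spike-in scaling, with Vwf at -0.21, Kdr at -0.31, Pecam1 at -0.39 and Cdh5 at -0.19, and for Pecam1 with 1 array left out, where it ranged from -0.030 (without control replicate 2) to 0.12. The median of the endothelial genes was -0.26 without normalisation, -0.39 with spike-in scaling and -0.21 with no filter, which takes in all 10 genes. All kept probes moved by a median of -0.28 and -0.40 under the former pair of settings.

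Endothelial genes lower at an unadjusted p under 0.05, 1 as reported, were 3 without normalisation (Tek, Eng and Nos3), 2 with the percentile over detected probes (Tek and Nos3), 0 with normexp, no filter or the methods' test, and 0 to 2 with 1 array left out. That count was 0 without control replicate 1 or C3a replicate 3 and 2 without C3a replicate 1. The median correlation between endothelial genes was 0.75 without normalisation, 0.94 with spike-in scaling and -0.011 to 0.36 with 1 array left out, highest without control replicate 2.

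Over all probes, 4 were lower at an adjusted p under 0.05 without normalisation, and 1 higher and 15 lower with spike-in scaling. Probes higher at an unadjusted p under 0.05, 780 as reported, were 41 without normalisation, 9 with spike-in scaling, 357 with no filter, 366 with the filter on all 6 arrays and 439 (without C3a replicate 3) to 1256 (without control replicate 3) with 1 array left out. Probes lower, 587 as reported, were 2558 without normalisation, 1721 with spike-in scaling, 349 with normexp, 362 with the methods' test and 272 (without C3a replicate 3) to 882 (without control replicate 3), with 295 without C3a replicate 1. The filter on all 6 arrays gave 645 lower. With the replicate block the probes were 1815 higher and 1371 lower, and 1 endothelial gene, Nos3, as without it. The block changed no other call among the 7 tested marker genes. It added calls in other lists, such as Procr, Flt4 and Reln. The cause of these shifts was not tested. Tie1, Emcn and Flt1 were too near background to be tested.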
